A study of Mus musculus with 11 samples.

Results

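The integrated stress response is the program that cells switch on when the initiation factor eIF2 is phosphorylated, and the transcription factor Atf4 carries out much of it. A list of 53 genes of this program was followed in the cerebral RNA of Polg mutator mice. The genes were listed by name, with earlier results of these data known, and cover the eIF2 kinases and phosphatase subunits, the transcription factors, stress effectors, the secreted factors Gdf15 and Fgf21, enzymes of amino acid and one-carbon metabolism, amino acid transporters and cytosolic tRNA synthetases. All 53 were present among the 36666 genes of the count table, and 51 had enough counts to be tested.

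The samples came from male mice of the C57/Bl6 strain at 1 year of age. There were 7 mutators (D257A/D257A), which carry on both alleles the D257A change in the proofreading domain of the mitochondrial DNA polymerase gamma. The 4 controls were 3 WT/WT littermates and 1 littermate that was WT/D257A, and so carried the same change on 1 allele. The change is germline and present in each cell of the mutators, and RNA was taken from a cerebral hemisphere with all its cell types. Mice are named below by their numbers, 205, 239 and 246 for WT/WT, 237 for WT/D257A, and 207, 211, 217, 236, 240, 248 and 249 for mutators.

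Several kinases phosphorylate the alpha subunit of eIF2, each in response to its own stresses, which lowers general protein synthesis while the Atf4 message is translated more. Atf4 then binds, with partners of the C/EBP family, to response elements of amino acid synthesis, transport and tRNA charging genes. Defects of mitochondrial DNA expression are known to engage this program in muscle and heart, where Fgf21 and Gdf15 serve as secreted markers of it. Because Atf4 is controlled largely at the level of translation, its own mRNA reports only part of the response.

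None of the listed genes passed the test in edgeR. Of the 51 tested, 0 had an adjusted p-value under 0.05 (edgeR quasi-likelihood test, Benjamini-Hochberg adjustment over all 17983 genes tested), where 1.24% of all genes did. The smallest adjusted p-value was 0.11, for the cationic amino acid transporter Slc7a3. DESeq2 called 1 member, Slc7a3, where it called 3.54% of all genes. In edgeR, 9 members had an unadjusted p-value under 0.05 and each of the 9 was higher in the mutators. Of all genes, 15.8% had such a p-value and 7.18% had it and were higher. The 9 were Slc7a3, Gpt2, Chac1, Trib3, Vldlr, Nars, Atf5, Ddit4 and Slc7a1.

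The changes were small. The log2 fold change of mutators over controls was above 0 for 42 of the 51 members and for 50.4% of all genes. Its median was 0.086 over the members and 0.001 over all genes. Members ranged from -0.23 for Cebpb to 0.63 for Trib3. The 95% confidence interval of the fold change lay within 1.5-fold in either direction for 46 of the 51. The other 5 were Trib3, Chac1, Ddit4, Slc7a3 and Atf3. Of all 17983 genes tested, 14006 had an interval within 1.5-fold. Members were also more abundant, with a median level of 5.18 against 3.96 over all genes tested (log2 of counts scaled to library size). The part of this level in the width of their intervals was not tested. Groups of mice did not overlap for 1 member, Gpt2, and for 2.62% of all genes. In whole tissue, fewer cells of a type and less RNA per cell cannot be told apart, and this holds for each value here. The plot of fold changes by role shows the 51 intervals.

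**Figure D1:**
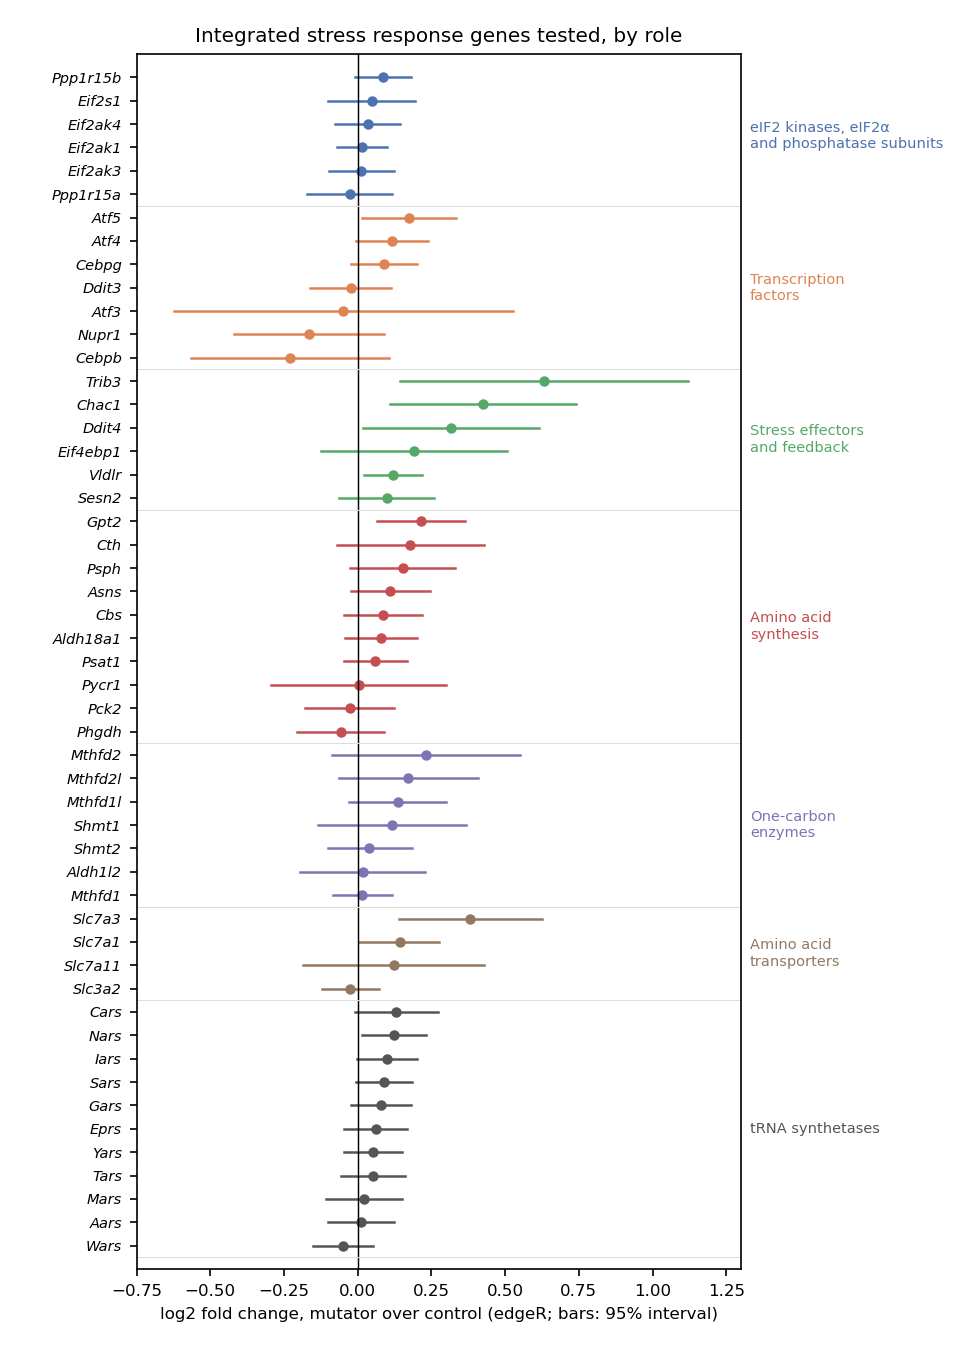
Log2 fold change of mutators over controls (x axis) for the 51 genes tested, 1 gene per line, grouped and coloured by role. Points are edgeR estimates and bars their 95% confidence intervals. Of the 51 points, 42 lie above 0, and Trib3 is the highest at 0.63.

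**Figure D2:**
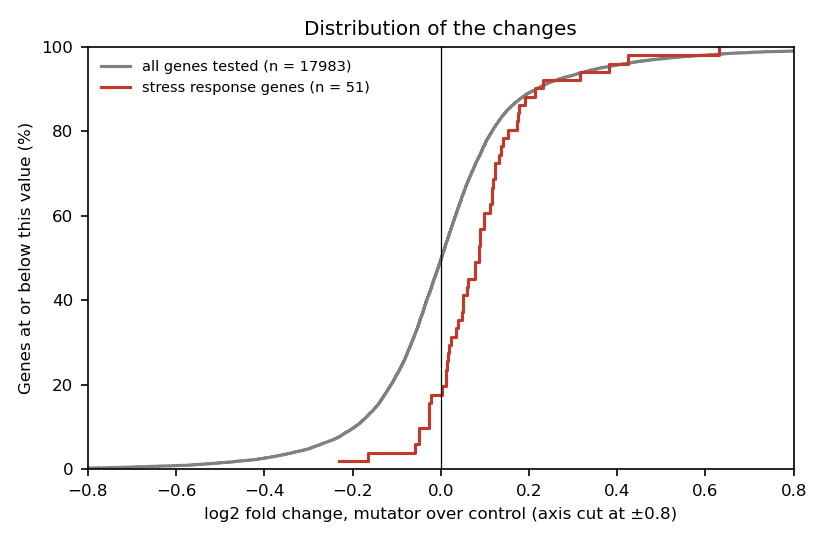
Cumulative share of genes (y axis, percent) at or below each log2 fold change of mutators over controls (x axis). The red line holds the 51 members with a median of 0.086 and the grey line all 17983 genes tested with a median of 0.001.

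Among the groups of members, the upstream part of the pathway had the narrowest range of changes. The 6 genes of this group are Eif2s1, the alpha subunit that is phosphorylated, the kinases Eif2ak1 (HRI, responsive to heme), Eif2ak3 (PERK, of the endoplasmic reticulum) and Eif2ak4 (GCN2, responsive to uncharged tRNA), and Ppp1r15a and Ppp1r15b, which direct a phosphatase to eIF2. Their log2 fold changes ranged from -0.027 for Ppp1r15a to 0.086 for Ppp1r15b, and 0 of the 6 had an unadjusted p-value under 0.05. Eif2ak1 was at 73.9 ± 1.77 CPM (counts scaled to the size of the library) in controls (SD, n = 4) and 74.7 ± 1.54 CPM in mutators (SD, n = 7). These are mRNA levels, and the phosphorylation through which this part of the pathway works was not measured in these data.

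Atf4, the central transcription factor (chr15:80085614-80087970, plus strand, NCBIM37), was among the more abundant members. It was at 118, 114, 117 and 128 CPM in controls 205, 237, 239 and 246, and in mutators it ranged from 114 CPM in mouse 207 to 146 CPM in mouse 217 with a median of 129 CPM. Mice 217 and 248 lay above all controls by the widest margin, and mouse 207 was level with the lowest control, so the groups overlapped. The log2 fold change was 0.12 ± 0.058 (SE, adjusted p = 0.348 in edgeR), and the 95% interval of the fold ran from 0.996 to 1.18.

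Atf5, a relative of Atf4 linked to the mitochondrial unfolded protein response, was at 16.6, 18.1, 17.5 and 16.8 CPM in controls 205, 237, 239 and 246. Mutators ranged from 16.8 CPM in mouse 207 to 23.1 CPM in mouse 236 with a median of 19.1 CPM. Mutators 211, 217, 236, 248 and 249 lay above each control, and the groups overlapped through mice 207 and 240. The fitted change was a log2 fold change of 0.17 ± 0.077 (SE, adjusted p = 0.268 in edgeR).

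Ddit3, which encodes the pro-apoptotic factor CHOP, had a fold change close to 1. Its controls were at 20.2, 23.0, 19.5 and 24.1 CPM in the same order, and mutators ranged from 19.2 CPM in mouse 207 to 22.4 CPM in mouse 249 with a median of 21.6 CPM. All mutators but mouse 207 fell inside the range of the controls. On the log2 scale the fold change was -0.023 ± 0.066 (SE, adjusted p = 0.903 in edgeR). Exons of Ddit3 and of Mars overlap on opposite strands over 68 bases, which is 3.97% of the exon length of Ddit3, and how reads from this stretch were assigned is not given in the sources used here. Of the 53 members, 11 share exon bases with another gene.

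The other transcription factors were Cebpg, a partner of Atf4, at a log2 fold change of 0.09, and Cebpb, Nupr1 and Atf3, at -0.23, -0.17 and -0.05, and none of the 4 had an unadjusted p-value under 0.05. Atf3, an early stress gene, was low and uneven, at 1.96 CPM in control 205 and 1.83 CPM in mutator 211 against at most 1.27 CPM in the other 9 mice. Without mouse 205 its log2 fold change was 0.43 in place of -0.05. Cebpb, the lowest member, shares 20.7% of its exon length with Tmem189 on the opposite strand, so its value is uncertain, and without mouse 239 its log2 fold change was -0.112. Of the 7 transcription factors, 3 were higher and 4 lower in the mutators.

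The stress effectors and feedback genes had the highest median of the groups, 0.25 on the log2 scale, with 6 of 6 higher in mutators. Of the 6, 0 passed the adjusted threshold and 4 had an unadjusted p-value under 0.05 in edgeR. Of all genes, 15.8% had such a p-value and 7.18% had it and were higher. Trib3 (chr2:152163158-152169768, minus strand, NCBIM37), a pseudokinase that restrains Atf4, was at 0.475, 0.921, 0.817 and 0.654 CPM in controls 205, 237, 239 and 246. Mutators ranged from 0.625 CPM in mouse 211 to 1.46 CPM in mouse 236 with a median of 1.08 CPM. All mutators but mouse 211 lay above each control. The log2 fold change was 0.63 ± 0.23 (SE, adjusted p = 0.186 in edgeR), and it rests on 18 to 98 counts per mouse.

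Chac1 (chr2:119176965-119180117, plus strand, NCBIM37) encodes an enzyme that degrades glutathione. Its controls were at 5.45, 6.91, 6.39 and 6.58 CPM, and mutators ranged from 6.19 CPM in mouse 207 to 12 CPM in mouse 217 with a median of 8.3 CPM. Mice 217, 236, 240, 248 and 249 lay above each control, and mice 207 and 211 lay among them. This gave a log2 fold change of 0.42 ± 0.15 (SE, adjusted p = 0.17 in edgeR), with a 95% interval of the fold from 1.08 to 1.67.

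Ddit4, an inhibitor of the growth kinase mTORC1, was at 42.7, 38.1, 40.2 and 40.6 CPM in the controls and between 38.3 CPM in mouse 248 and 64.3 CPM in mouse 249, with a median of 50.1 CPM, in mutators. The mutators were far more spread (SD 9.65 CPM) than the controls (SD 1.89 CPM), and mice 240 and 248 lay among the controls. The fitted change was a log2 fold change of 0.32 ± 0.14 (SE, adjusted p = 0.291 in edgeR). The lipoprotein receptor Vldlr, at a log2 fold change of 0.12, was the fourth of these genes with an unadjusted p-value under 0.05, with an adjusted p of 0.223 in edgeR. Sesn2, which limits mTORC1 when leucine is scarce, and Eif4ebp1, which blocks cap-dependent initiation, had log2 fold changes of 0.10 and 0.19.

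**Figure D3:**
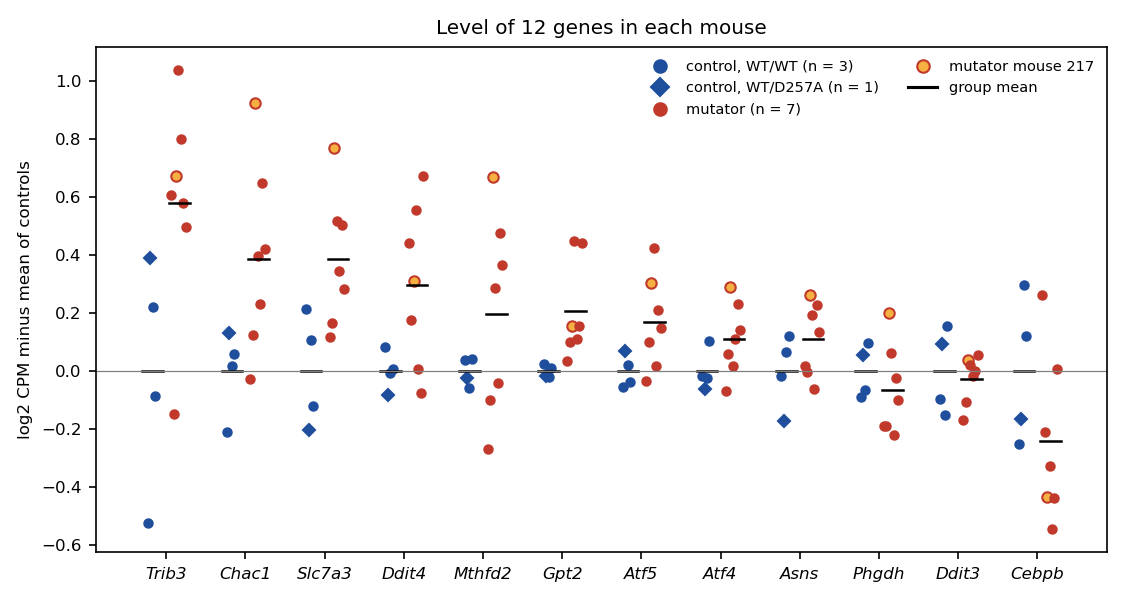
Log2 CPM minus the mean of the 4 controls (y axis) in each mouse for 12 genes (x axis), with blue circles for WT/WT, blue diamonds for WT/D257A, red circles for mutators, the yellow circle for mutator 217 and black lines for group means. The groups overlap for each gene but Gpt2, and mouse 217 is the highest mutator for Chac1, Slc7a3, Mthfd2, Atf4, Asns and Phgdh.

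The secreted factors were at the edge of detection. Gdf15 had 12, 5, 2 and 2 counts in controls 205, 237, 239 and 246 and from 1 to 12 counts in mutators, with the 12 in mouse 240. Fgf21 had 1, 1, 0 and 1 counts in the controls in the same order. In mutators it ranged from 0 counts in mouse 249 to 10 counts in mouse 217, and the other 5 had 1 to 3. The highest level of Fgf21 was 0.182 CPM, in mouse 217, and of Gdf15 0.179 CPM, in mouse 240. Neither gene could be tested, and at this depth a difference between the groups was not detectable. A count of 0 allows a level of up to 3 counts, a limit that covers counting error only.

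Of the amino acid synthesis genes, 8 of 10 were higher in mutators and the median change was 0.082 on the log2 scale. Gpt2 (chr8:88016475-88051459, plus strand, NCBIM37), the mitochondrial alanine aminotransferase, was the member whose groups were apart. It was at 66.8, 64.9, 64.7 and 66.1 CPM in controls 205, 237, 239 and 246, and in mutators from 67.2 CPM in mouse 207 to 89.5 CPM in mouse 236 with a median of 73.1 CPM. Mice 236 and 249, the latter at 89.0 CPM, stood above the other 5 mutators. On the log2 scale the fold change was 0.21 ± 0.072 (SE, adjusted p = 0.142 in edgeR).

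Asns, the asparagine synthetase and a classical Atf4 target, was at 89.9, 80.8, 95.2 and 98.8 CPM in the controls and between 87.2 CPM in mouse 240 and 109 CPM in mouse 217, with a median of 99.7 CPM, in mutators. Its log2 fold change was 0.11 ± 0.065 (SE, adjusted p = 0.423 in edgeR), and the WT/D257A mouse was the lowest of the 11 mice. Without that mouse the log2 fold change of Asns was 0.059.

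Serine synthesis begins with Phgdh, which was at 70.1, 77.4, 71.2 and 79.6 CPM in the controls and between 63.9 CPM in mouse 240 and 85.6 CPM in mouse 217, with a median of 69.6 CPM, in mutators. The log2 fold change was -0.058 ± 0.071 (SE, adjusted p = 0.739 in edgeR). Sequences at least 95% identical to the Phgdh transcript lie at 7 other places in NCBIM37, with identities from 95.4% to 98.8%. Reads that align to several places were left out of the counts, so Phgdh may be lowered and its values are uncertain. Psat1, the next enzyme, was at 118, 115, 117 and 126 CPM in the controls and between 114 CPM in mouse 240 and 140 CPM in mouse 217, with a median of 125 CPM, in mutators, a log2 fold change of 0.06 ± 0.052 (SE, adjusted p = 0.613 in edgeR). The last enzyme of serine synthesis, Psph, had a log2 fold change of 0.15. For all 3 enzymes mouse 217 was the highest mutator.

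Pycr1, which completes proline synthesis, was at 2.5, 3.18, 3.09 and 2.69 CPM in the controls and from 2.34 CPM in mouse 240 to 3.72 CPM in mouse 236, with a median of 2.74 CPM, in mutators. Its log2 fold change was 0.003 ± 0.14 (SE, adjusted p = 0.996 in edgeR). Pck2, the mitochondrial PEP carboxykinase, was at 21.0, 23.8, 21.5 and 25.2 CPM in the controls and from 19.2 CPM in mouse 207 to 24.6 CPM in mouse 249, with a median of 22.3 CPM, in mutators. Its log2 fold change was -0.027 ± 0.072 (SE, adjusted p = 0.895 in edgeR). The groups overlapped for both genes. The remaining genes, Aldh18a1 of proline synthesis and Cth and Cbs of the transsulfuration pathway, had log2 fold changes from 0.08 to 0.18.

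The 7 one-carbon enzymes were all higher in the mutators, with 0.12 as their median on the log2 scale, and 0 of the 7 had an unadjusted p-value under 0.05. Mthfd2, the mitochondrial methylene-tetrahydrofolate dehydrogenase, was at 8.89, 8.52, 8.3 and 8.9 CPM in the controls, a range much narrower than in the mutators. In mutators it ran from 7.18 CPM in mouse 207 to 13.8 CPM in mouse 217 with a median of 10.6 CPM. Mice 207 and 211 lay below each control and mice 217, 236, 248 and 249 above each. This gave a log2 fold change of 0.23 ± 0.15 (SE, adjusted p = 0.481 in edgeR), and its interval of the fold ran from 0.942 to 1.47. Without mouse 217 the log2 fold change of Mthfd2 was 0.146.

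Shmt2, the mitochondrial serine hydroxymethyltransferase, was at 17.1, 17, 17.5 and 17.2 CPM in the controls and between 15.6 CPM in mouse 207 and 20.2 CPM in mouse 217, with a median of 17.5 CPM, in mutators. Its log2 fold change was 0.04 ± 0.069 (SE, adjusted p = 0.826 in edgeR). Aldh1l2, which oxidises formyl-tetrahydrofolate in mitochondria, was at 8.65, 8.2, 7.71 and 6.58 CPM in the controls and from 6.57 CPM in mouse 207 to 9.89 CPM in mouse 217, with a median of 7.85 CPM, in mutators. Its log2 fold change was 0.02 ± 0.1 (SE, adjusted p = 0.955 in edgeR). The cytosolic enzymes Mthfd1 and Shmt1 and the mitochondrial Mthfd1l and Mthfd2l had log2 fold changes from 0.016 to 0.17. A sequence 97.7% identical to 59.4% of the Mthfd2l transcript lies on chromosome X, so the value of Mthfd2l is uncertain.

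Among the 4 amino acid transporters, Slc7a3 had the smallest p-value of all members (unadjusted p = 0.004 in edgeR). Slc7a3 (chrX:98274549-98281359, minus strand, NCBIM37) takes up arginine and lysine. It was at 14.2, 10.6, 13.2 and 11.2 CPM in controls 205, 237, 239 and 246, and in mutators from 13.3 CPM in mouse 207 to 20.8 CPM in mouse 217 with a median of 15.5 CPM. Mice 207 and 211 lay under control 205 and the other 5 mutators above each control. The log2 fold change was 0.38 ± 0.11 (SE, adjusted p = 0.11 in edgeR), while DESeq2 gave an adjusted p of 0.0291.

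Slc7a11, the cystine importer, was at 56.8, 56.9, 54.3 and 49.5 CPM in the controls and from 42.8 CPM in mouse 207 to 72 CPM in mouse 217, with a median of 59.3 CPM, in mutators. Its mutators spread below and above the controls, and the log2 fold change was 0.12 ± 0.14 (SE, adjusted p = 0.725 in edgeR). Slc7a1, like Slc7a3 a cationic amino acid transporter, had a log2 fold change of 0.14 (adjusted p = 0.294 in edgeR), and Slc3a2, the heavy chain that partners Slc7a11, of -0.026.

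The 11 cytosolic tRNA synthetases, which charge tRNAs with amino acids, had small and even changes, with log2 fold changes from -0.05 for Wars to 0.13 for Cars and a median of 0.061. Of the 11, 10 were higher in mutators and Nars, at 0.12, had an unadjusted p-value under 0.05 (adjusted p = 0.249 in edgeR). The interval of the fold change lay within 1.5-fold for each of the 11 and for 14006 of all 17983 genes tested. Per kilobase of exon, Nars at 75.5 CPM per kb and Atf4 at 69.2 CPM per kb had the highest control means among members, and Trib3 had 0.337 CPM per kb, Gdf15 0.0429 CPM per kb and Fgf21 0.0182 CPM per kb.

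Mutator mice differed from one another in this program. For each mouse the median over the 51 members of log2 CPM minus the control mean was taken. It was -0.009, -0.022, 0 and 0.056 in controls 205, 237, 239 and 246, and in mutators ranged from 0.005 in mouse 207 to 0.193 in mouse 217 with a median of 0.068. Control 246 thus lay above mutators 207, 211 and 240, and the groups overlapped. Over all genes the same median was between 0.001 and 0.011 in each of the 11 mice.

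Mouse 217 was the highest of the 11 mice for 22 of the 51 members, or 43.1%, and for 9.44% of all genes. It also held the highest Fgf21. By group its median was 0.167 in the transcription factors, 0.376 in the stress effectors, 0.378 in the transporters, 0.234 in the one-carbon enzymes, 0.203 in amino acid synthesis and 0.151 in the synthetases, and 0.008 in the eIF2 kinases and phosphatase subunits. Without this mouse 5 members in place of 9 had an unadjusted p-value under 0.05, where 16.2% of all genes did, and the median log2 fold change over the members was 0.069. Mouse 207, with the lowest median of the mutators, was the lowest of the 7 mutators for 19 members. It was the lowest of the 11 mice for 17.6% of members and 12.2% of all genes. It was the highest of the 11 for 5 members, or 9.8%, and for 12.3% of all genes. The summed level of 8 oligodendrocyte markers was also highest in mouse 217, at 6890 CPM against 4920 to 5710 CPM in the other mutators and 5050 to 5760 CPM in controls. Its summed astrocyte and microglia markers, at 4960 and 316 CPM, were the highest of the mutators but inside the range of the controls. The part of these markers in the values of this mouse was not tested. The mutators were not distinguished further by their labels, and what sets these mice apart was not tested.

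**Figure D4:**
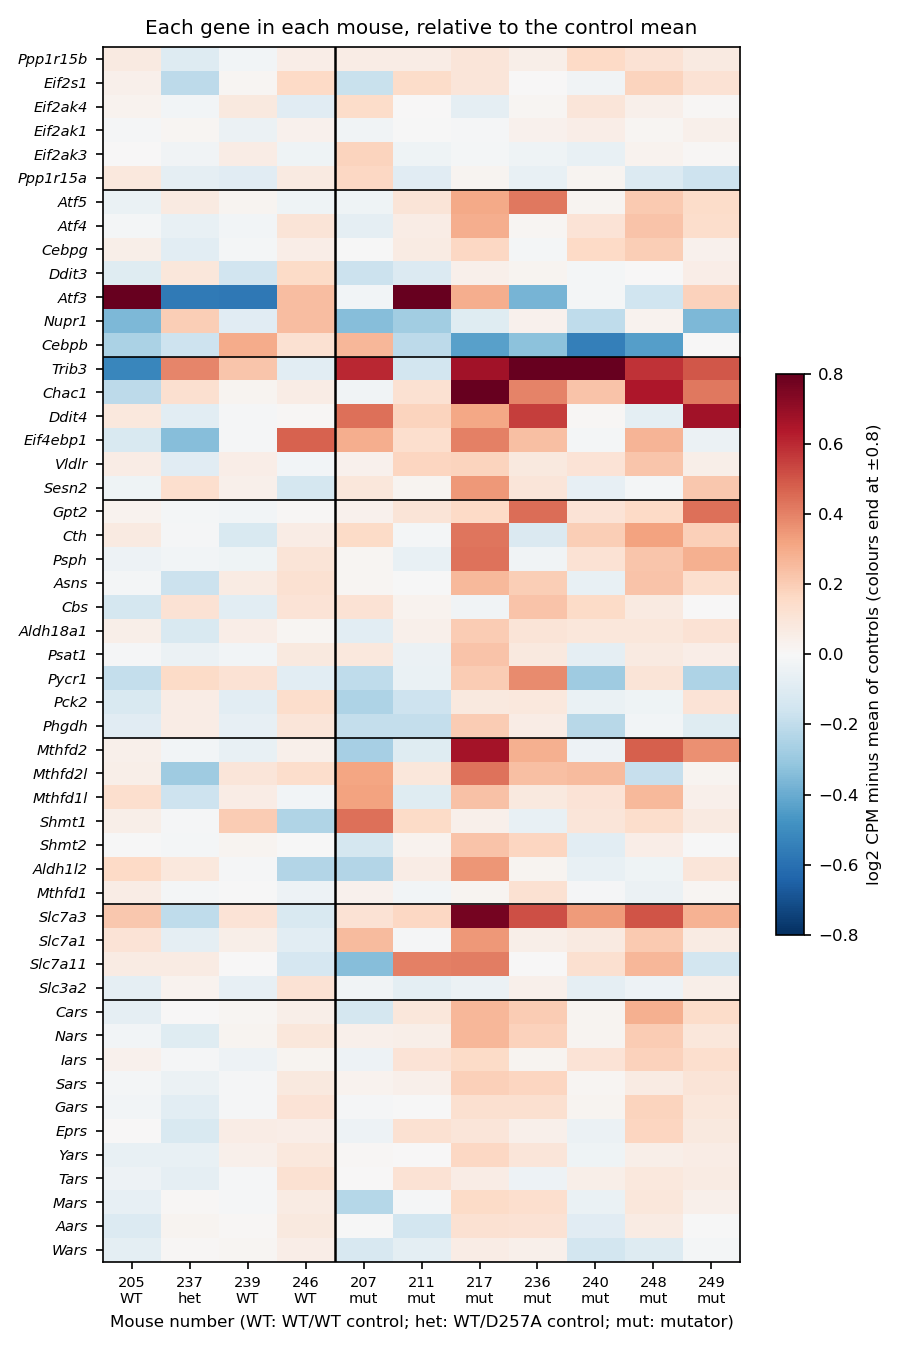
Log2 CPM minus the mean of the 4 controls, as colour, for the 51 members (one per line, in the order of the plot by role) in each of the 11 mice (columns, with controls left of the line). Red is above and blue below the control mean, colours end at 0.8, and mouse 217 is the highest of the 11 for 22 members.

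The WT/D257A control, mouse 237, lay within the range of the 3 WT/WT mice for 25 of 51 members (49%), below it for 19 (37.3%) and above it for 7 (13.7%). Of all genes, 42.1% were within, 29.5% below and 28.4% above. It was the lowest of the 11 for 16 members, or 31.4%, and for 16% of all genes, and the highest for 0 members and 15.1% of all genes. With the 3 WT/WT mice alone as controls, the median log2 fold change of the members was 0.056, 0 members passed the adjusted threshold, where 0.273% of all genes did. In that fit 5 members, as many as in the fit without mouse 217, and 9.79% of all genes had an unadjusted p-value under 0.05.

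Promoter sequences were read from RefSeq windows on GRCm38.p6 for 44 of the 53 members, each window with 250 bases before and 50 after the start. The core of the C/EBP-ATF response element, TGATGNAA, was searched on both strands because it is the letters Atf4 is known to bind with its C/EBP partners. It was present in the windows of 15 of the 44 members, or 34.1%, and of 4.51% of 27025 genes. For comparison, the E-box CACGTG was in 18.2% of members and 8.09% of genes, and the cAMP response element TGACGTCA, which shares TGA with the first motif, in 2.27% and 2.03%. A match is only a string of letters, and members were chosen by name. No window was matched for Ppp1r15b, Eif4ebp1, Cth, Aldh1l2, Slc7a3, Cars, Nars, Wars and Mars.

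The matches of some of these 15 members are shown with 11 bases on either side, motif in capitals, read 5′ to 3′ on the strand that holds TGATGNAA. Those of Nupr1 and of the synthetases Aars, Gars, Iars, Tars and Yars are not shown. Trib3, Chac1 and Vldlr are stress effectors with an unadjusted p-value under 0.05, Asns is the classical target, and the others are taken from the transcription factors, synthesis enzymes, transporters and secreted factors. Trib3 is at chr2:152344028-152344057, plus strand, 15 bases after the start. Chac1 is at chr2:119351038-119351067, minus strand, Asns at chr6:7693214-7693243, minus strand, and Vldlr at chr19:27216809-27216838, minus strand. Atf3 is at chr1:191183425-191183454, plus strand, Pycr1 at chr11:120643833-120643862, minus strand, and Pck2 at chr14:55540152-55540181, minus strand. Slc7a11 holds a pair, at chr3:50443642-50443671, plus strand, and chr3:50443661-50443690, minus strand, and Fgf21 is at chr7:45615611-45615640, plus strand.
Trib3: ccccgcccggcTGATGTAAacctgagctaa
Chac1: cctggcaggagTGATGCAAcggcagggaag
Asns: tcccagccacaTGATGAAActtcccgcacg
Vldlr: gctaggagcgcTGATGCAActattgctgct
Atf3: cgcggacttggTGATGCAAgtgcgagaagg
Pycr1: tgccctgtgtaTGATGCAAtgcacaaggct
Pck2: ctgtaagatacTGATGTAActttgaaggct
Slc7a11 (first): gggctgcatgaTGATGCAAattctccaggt
Slc7a11 (second): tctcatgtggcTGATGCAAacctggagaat
Fgf21: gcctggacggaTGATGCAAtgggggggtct

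The 250 bases before the start of Chac1 (chr2:119350992-119351241, plus strand) and of Asns (chr6:7693210-7693459, minus strand) are given whole, in the direction of the gene, because both genes are textbook targets of Atf4. In Chac1 the match is on the other strand and so reads as the reverse complement in capitals, with its first base 193 bases before the start. In Asns it reads forward and lies 23 bases before the start.
Chac1: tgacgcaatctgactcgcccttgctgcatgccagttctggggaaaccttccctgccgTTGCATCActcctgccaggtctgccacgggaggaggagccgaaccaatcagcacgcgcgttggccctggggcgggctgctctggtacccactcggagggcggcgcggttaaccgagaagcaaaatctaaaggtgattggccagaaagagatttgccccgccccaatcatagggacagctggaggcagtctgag
Asns: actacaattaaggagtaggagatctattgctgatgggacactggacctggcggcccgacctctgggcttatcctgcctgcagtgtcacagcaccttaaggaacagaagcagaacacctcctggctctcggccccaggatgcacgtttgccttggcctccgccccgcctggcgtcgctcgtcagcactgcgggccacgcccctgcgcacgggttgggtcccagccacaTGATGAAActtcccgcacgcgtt

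The median log2 fold change was 0.064 over the 14 tested members with TGATGNAA, of which 11 were higher in mutators. Over the 28 tested members without it the median was 0.082, and 23 were higher. Across all genes tested the median was 0.016 over the 325 with the motif, of which 54.2% were higher, and 0.002 over the rest.

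Exon usage of the program was compared between the 3 WT/WT mice and the 7 mutators. Of 787 bins in 49 members, diffSpliceDGE in edgeR called 0 at an adjusted threshold of 0.05, and 0.0237% of all 206930 bins. In limma's diffSplice 0 member bins and 0.0121% of all bins passed. Unadjusted p-values under 0.05 were found for 10 member bins and 1.9% of all bins. The smallest was in a bin of the kinase Eif2ak3 with 18 to 93 counts, which took 2.4%, 3.36% and 3.1% of the counts of its gene in mice 205, 239 and 246. In mutators it took from 1.52% in mouse 249 to 2.77% in mouse 236 with a median of 1.84%, and mouse 236 lay above control 205, so the groups overlapped.

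Another 28 genes of the same pathway that are not in the list of 53 were read beside it. Of these, 1 passed the test, where 1.24% of all genes did. Slc38a2 (chr15:96517825-96530129, minus strand, NCBIM37), a neutral amino acid transporter and known Atf4 target, was at 167, 164, 150 and 162 CPM in controls 205, 237, 239 and 246, and in mutators from 180 CPM in mouse 248 to 236 CPM in mouse 240 with a median of 200 CPM. Each mutator lay above each control. The fitted change was a log2 fold change of 0.33 ± 0.06 (SE, adjusted p = 0.00822 in edgeR), and Slc38a2 stayed past the threshold in each of the 18 alternatives, with adjusted p-values up to 0.0469. Mouse 217, highest for so many members, was at 187 CPM, the second lowest of the mutators.

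Of the same 28 genes, 20 were higher in mutators, where 50.4% of all genes were, and the median log2 fold change was 0.085. An unadjusted p-value under 0.05 in edgeR was found for 8, each higher. Of all genes, 15.8% had such a p-value and 7.18% had it and were higher. Groups did not overlap for 2 of the 28 and for 2.62% of all genes. Next after Slc38a2 came the secreted glycoprotein Stc2, whose groups also did not overlap, at a log2 fold change of 0.46 (adjusted p = 0.127 in edgeR), and the oxidoreductase Ero1l at 0.16 (adjusted p = 0.143 in edgeR). The other 9 cytosolic tRNA synthetases had a median of 0.003 with 0 called, and Vars, Rars and Dars had the smallest p-values among them, at log2 fold changes of -0.07, 0.065 and -0.038. The 17 mitochondrial synthetases had a median of -0.028 with 0 called and 12 lower. Vars2 at -0.13, Aars2 at -0.12 and Hars2 at 0.11 had the smallest p-values among them.

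Among 18 tested genes of one-carbon metabolism and glycine cleavage outside the list, Gldc, the glycine decarboxylase, fell. It was at 29.4, 30.5, 27.9 and 27.7 CPM in controls 205, 237, 239 and 246 and from 20.5 CPM in mouse 207 to 25.7 CPM in mouse 217, with a median of 24 CPM, in mutators, and the groups did not overlap. On the log2 scale the fold change was -0.29 ± 0.064 (SE, adjusted p = 0.0297 in edgeR). The call was lost in 6 of 18 alternatives, of which the WT/WT controls alone and the fit without mouse 237 hold the same mice, with an adjusted p-value of 0.169 without the WT/D257A mouse, 0.0621 without mouse 239, 0.0606 without mouse 246, 0.0556 without mouse 236 and 0.0583 without mouse 240. Next came Mat2a, which makes S-adenosylmethionine, and the methionine synthase Mtr, at log2 fold changes of 0.12 and 0.21 and adjusted p-values of 0.214 and 0.288 in edgeR. The 12 genes of proline, glutamate and aspartate synthesis had 0 calls in edgeR, with Ass1 at 0.14 and Gpt at -0.18 on the log2 scale.

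Library totals ranged from 28249345 to 121182250 gene counts, and gene counts per aligned read were 3 in mutator 248 and 0.744 to 0.775 in the other 10 mice. Markers of the cerebrum's cell types were present (7 of the 8 neuron markers had a line in the table), with summed levels of 8 astrocyte markers at 4830 to 5130 CPM in controls and 4570 to 4960 CPM in mutators. Of these 8, 0 passed the test. On the log2 scale the median change was -0.165 for oligodendrocyte markers (0 of 8 called), -0.168 for microglia markers (0 of 7), -0.027 for neuron markers (0 of 7) and 0.041 for endothelial markers (0 of 8). It was -0.168 for oligodendrocyte precursor markers (0 of 3) and 0.097 for choroid plexus and ependyma markers (0 of 5). Lower in mutators were 6 of 8 oligodendrocyte, 7 of 7 microglia, 5 of 7 neuron and 3 of 3 precursor markers. Of all genes, 50.4% were higher. An unadjusted p-value under 0.05 in edgeR was found for 4, 4, 2 and 1 markers of these lists, and for 15.8% of all genes. Endothelial markers were mixed, with 5 higher and 3 lower, from -0.215 for Tek to 0.842 for Kdr (adjusted p = 0.0705 in edgeR). The groups did not overlap for Kdr. Abcc9 of 5 pericyte markers and Ppbp of 6 tested blood markers rose, at log2 fold changes of 0.64 and 3.83 (adjusted p = 0.000433 and 0.00483 in edgeR). The size of the Ppbp change is uncertain. Ppbp had 3, 1, 1 and 5 counts in controls 205, 237, 239 and 246 and 15 to 65 counts in mutators. Of the pericyte markers 4 were higher and 1 was lower, and the 6 tested blood markers were all higher. The part of these markers in the values of the stress response genes was not tested.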

How the data were processed

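RNA of the cerebral hemisphere was sequenced in 11 mice. Per the study's methods and the submitters' processing notes, reads were aligned to mm9 with TopHat2 2.0.6 and Bowtie2 2.0.2.0 and counted with HTSeq 0.5.3p9, and the authors deposited raw counts per gene for 11 mice and per exon bin for 10, not normalized. HTSeq leaves out reads that align to several places, which lowers genes with near-identical copies. Deposited comparison tables (DESeq and DEXSeq fold changes, p-values and pooled means) were not used, and a deposited table of read totals served only for counts per aligned read. In the exon files, 20.6% to 23.4% of counts lay outside bins and were left out.

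The main test of gene counts was edgeR's robust quasi-likelihood fit (edgeR 4.0.16, R 4.3.3) after filterByExpr and TMM scaling, on all genes, with Benjamini-Hochberg adjustment and a threshold of 0.05. Exon bins were tested with diffSpliceDGE. CPM use TMM factors, and levels on the log2 scale use a prior count of 2. Standard errors come from the F statistic. Alternatives used DESeq2 1.42.0, limma 3.58.1, RLE and upper-quartile normalization, other filters (none, or a mean count of at least 10), WT/WT controls only, log2 total count as a covariate, and leaving out each mouse. Steps were tested on simulated data with planted changes larger than any fitted for a member, so recovery of changes as small as those of the members was not tested. P-values measure the spread between these mice only. Copies were found with minimap2 2.31 (at least 95% identity over 50% of a transcript). Gene positions and exon lengths are from GENCODE vM1 (NCBIM37, the same assembly as mm9).

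Members and lists were chosen with earlier results of these data known. Mouse values are given for members with an adjusted p under 0.05, an unadjusted p under 0.01 or groups that do not overlap, for 16 genes fixed by name, and, chosen after their values were seen, for Ddit4, Eif2ak1 and Atf3. Of other lists, called genes and those with the 3 smallest p-values are named, except 1 gene that is not reported here.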

Additional observations from a re-analysis of the deposited data

Results flagged for a closer look

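In 112 groups of 4 or 7 mice the gap between the most extreme mouse and its neighbour was set against the whole range of the group (Dixon's test at 95%), which chance alone passes in about 1 in 20 groups, or 5.6 of the 112. There were 6 that passed. Among mutators, mouse 207 had the highest Eif2ak3, the PERK kinase, at 40.7 CPM against 34.6 to 36.6 CPM in the others (gap over range 0.667), and the highest Shmt1, a cytosolic one-carbon enzyme, at 4.39 CPM against 3.09 to 3.58 CPM (0.619). The secreted factor Gdf15 stood out in mutator 240 at 0.179 CPM against 0.024 to 0.0542 CPM (0.805), a value of 12 counts, and Fgf21 in mutator 217 at 0.182 CPM against 0 to 0.0399 CPM (0.781), a value of 10 counts. Among controls, mouse 246 had the highest Psph, the last enzyme of serine synthesis, at 14.5 CPM against 13.1 to 13.3 CPM (0.864). Gene counts per aligned read were 3 in mutator 248 and 0.744 to 0.772 in the other mutators (0.988), and whether the read total or the counts of that mouse are off was not tested.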

How the results depend on the processing

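No member passed the adjusted threshold in 17 of 18 alternatives, and DESeq2 called 1, Slc7a3. Calls over all genes were 223 with edgeR, 615 with DESeq2, 346 with no filter, 50 with WT/WT controls only, and 50 to 412 when each mouse was left out. Calls over all exon bins were 49 with diffSpliceDGE, 25 with limma, and 5 to 186 when each mouse was left out, with 0 in members each time. The median log2 fold change of the members stayed between 0.056 and 0.092. Of the 51 members, 39 kept their direction in each alternative and 12 changed it in at least 1. With WT/WT controls only, Ddit3 turned to 0.01 and Eif2s1 to -0.016. Leaving out each mouse gave log2 fold changes from -0.026 to 0.038 for Aars, -0.046 to 0.074 for Aldh1l2, -0.238 to 0.43 for Atf3, -0.072 to 0.027 for Ddit3, -0.017 to 0.033 for Eif2ak3, -0.016 to 0.097 for Eif2s1, -0.002 to 0.063 for Mars, -0.002 to 0.034 for Mthfd1, -0.07 to 0.019 for Pck2, -0.062 to 0.004 for Ppp1r15a, -0.071 to 0.056 for Pycr1 and -0.052 to 0.013 for Slc3a2. For 35 of the 51 members the log2 fold change moved by over 1.5 times when some 1 mouse was left out. The cause of these differences was not tested. No paired analysis was possible because the labels give no number shared between mice of the groups. With 4 controls, the median standard error over the members was 0.0671 on the log2 scale, and Trib3, Gdf15 and Fgf21 rest on fewer than 100 counts per mouse.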
